A study of Elaeis oleifera with 12 samples.

Results

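Ripening of the abscission zone (AZ), the layer of cells at the fruit base where the fruit comes away, was followed in the shedding (Sd) palm of the American oil palm, Elaeis oleifera. The comparison sets 3 libraries of ripe Sd AZ against 3 libraries of pre-ripe (PR) Sd AZ, and takes in each locus that reached 1 RPKM in at least 1 library (20495 of 29040 loci). RPKM scale the reads of a locus to the length of its transcript and to the depth of the library. Both Sd groups came from 1 palm (code 28-7), with the PR libraries 7 to 9 from a bunch with firmly attached fruit and the ripe libraries 10 to 12 from the lowest bunch, whose orange fruit loosened readily. Each library pooled about 50 dissected fruit bases, so a group is repeated sampling of 1 bunch and the p-values measure the spread between such samplings. No agent was applied, and the fruit set by open pollination. The non-shedding (NSd) palm (code 26-11), sampled at the same stages with 3 libraries each (1 to 3 PR and 4 to 6 ripe), entered the fit and is used where the stage change of the Sd palm is set beside it. The palms belong to the same progeny (TA59D), and with 1 palm of each kind, palm and shedding cannot be told apart.

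The Sd libraries held 19672149 to 34004517 aligned reads, and 18390 to 18886 loci per library reached 1 RPKM. At least 2.70 to 6.85% of the reads fell on rRNA loci, with overlap between the stages (4.68 to 5.49% at PR, 2.70 to 6.85% at ripe). Pearson's r across loci was 0.977 to 0.991 within a stage and 0.951 to 0.980 between stages, and the pair of PR replicate 9 and ripe replicate 10 (0.980) was closer than PR replicates 7 and 9 (0.977). All pairs of Sd replicates differed by more than sampling noise (chi-square per degree of freedom 17.9 to 70.7 on whole reads). Markers of the AZ, taken as polygalacturonases, expansins and endoglucanases, were tested at 53 of 115 loci, none of which was called, 27 were at 0 in all 6 libraries, and the summed level was 1937 to 2307 RPKM at PR and 2515 to 2884 at ripe. Much of the rise in that sum was at expansin-like B1 (LOC105053923, 202.5 to 305 RPKM at PR and 427 to 996.5 at ripe). Expansin-B5 (LOC105043691) went the other way, from 674 to 844 RPKM at PR to 225 to 678 at ripe. The fruit base also holds other tissue. Summed levels from PR to ripe were 2758 to 2888 and 1531 to 2523 RPKM for oil-rich mesocarp markers, 159.8 to 183 and 176 to 185 for orange mesocarp, 804 to 835 and 820.5 to 955 for lignified pedicel, 155 to 184 and 174 to 256 for green tissue, and 7288 to 9996 and 5887 to 7741 for seed and late embryogenesis proteins. Tested were 7 of 8 orange mesocarp, 15 of 41 pedicel, 23 of 35 green and 13 of 32 seed loci, and 0, 10, 2 and 10 were at 0 throughout. The pedicel sum came largely from cinnamyl alcohol dehydrogenase 2 (LOC105061001, 562 to 682 RPKM). The seed sum came largely from late embryogenesis abundant protein Lea5 (LOC105045181, 4226 to 7982 RPKM). In bulk tissue, fewer cells of a type and less RNA per cell cannot be told apart.

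Fruit abscission depends on cells of the AZ becoming competent to respond to ethylene and then parting along their walls, a step in which pectin-degrading enzymes, expansins and other wall proteins act. In ripening oil palm fruit the surrounding mesocarp makes oil through the plastid pathway of fatty acid synthesis and accumulates carotenoids. Jasmonate, the wound and defence hormone, induces its own JAZ repressors (members of the TIFY family), so that JAZ transcripts are commonly read as a mark of an active response.

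From PR to ripe, 135 loci rose and 88 fell (limma on log2(RPKM + 1), with calls made at a Benjamini-Hochberg adjusted p below 0.01 where the log2 fold change also passed 1 in size), which is 0.659% and 0.429% of those tested and 1.09% together. Risers went from a median of 6.12 to 22.3 RPKM and fallers from 14.2 to 3.51 RPKM. All 223 called loci had libraries that did not overlap between the stages, but so had 16.9% of all loci in the upward and 15.1% in the downward direction. These shares of all loci, and the shares called, are the background for the list counts below. The median log2 fold change of all loci was 0.03. Of the called loci 39 had no known function and 8 were non-coding RNAs (of 4228 and 1106 tested). The counts moved with the libraries fitted, and leaving out a library also shrinks its group. With 1 library left out, 56 loci were called without replicate 7, 43 without 8, 410 without 9, 42 without 11 and 50 without 12. There were 142 without NSd replicate 2, 115 without NSd replicate 5 and 118 with the 6 Sd libraries fitted alone. The count stayed closer to 223 without ripe replicate 10 (232) and without NSd replicates 1 (289), 3 (230), 4 (274) and 6 (189). Calls that held whichever of the 12 libraries was left out numbered 33, of which 19 were risers and 14 fallers.

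**Figure D1:**
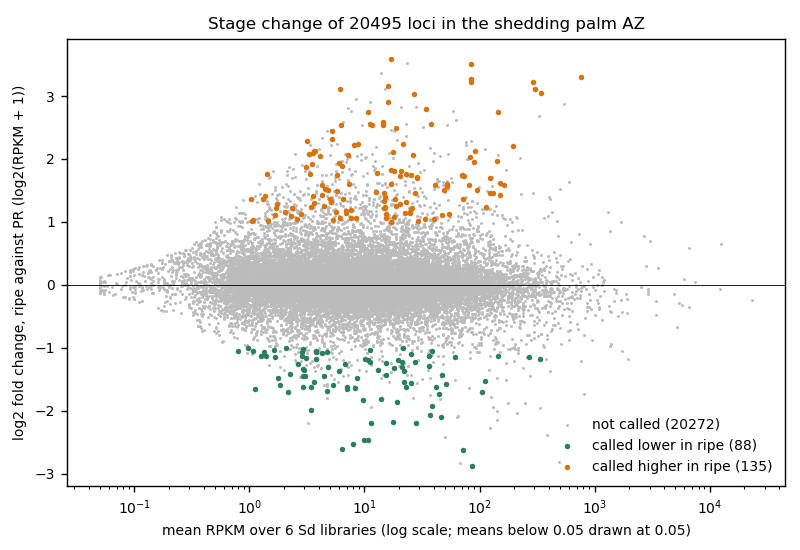
Each point is 1 of the 20495 loci, placed by its mean RPKM over the 6 Sd libraries (log scale) and its log2 fold change from PR to ripe. Most loci lie close to 0, and the 135 risers (orange) and 88 fallers (green) sit above 1 and below -1. None of the 10 most abundant loci other than rRNA was called, and the log2(RPKM + 1) scale understates changes of low loci.

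Proteins with a BURP domain, found only in plants and often exported to the wall, were the clearest family change: 7 of 12 tested members rose and none fell, with a median log2 fold change of 2.34. The 7 calls were the same in number in the fits without each library, with the Sd libraries alone and without replicates 9 and 10 together. The most abundant, BURP domain-containing protein 3-like (LOC105036039), was at 98.2, 158 and 170 RPKM in the PR libraries and at 1695, 1156 and 1323 in the ripe ones, a 9.80-fold higher mean. BURP domain-containing protein 3 (LOC105037817) was at 51.6, 82.8 and 84.3 RPKM and then at 768, 475.5 and 576 (8.32-fold, log2 fold change 3.04, SE 0.22, limma adjusted p = 5.69e-05). BURP domain-containing protein 6 loci followed the same course at very different levels. LOC105042312 moved from a mean of 62.7 ± 20.5 to 541 ± 147 RPKM (SD, n = 3), LOC105037616 from 33.1 ± 8.31 to 148 ± 32.5 and LOC105061550 from 2.02 ± 0.123 to 19.6 ± 4.09. In each of the 7 the lowest ripe library stood well above the highest PR library. Ripe replicate 10 was the highest of the ripe libraries in all of them. Other members did not pass the test: LOC105048271 had a log2 fold change of 0.99 (SE 0.21, adjusted p = 0.0175), the BURP 12 loci LOC105047983 and LOC105047113 of 0.51 and 0.61, and LOC105048272 and LOC105047509 of -0.86 and -0.41, with ripe replicate 12 the lowest library of that pair. The reads of near-identical copies may have been divided among these loci. Summed over the family, the level was 343 to 505.5 RPKM at PR and 2709 to 4146 RPKM at ripe.

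**Figure D2:**
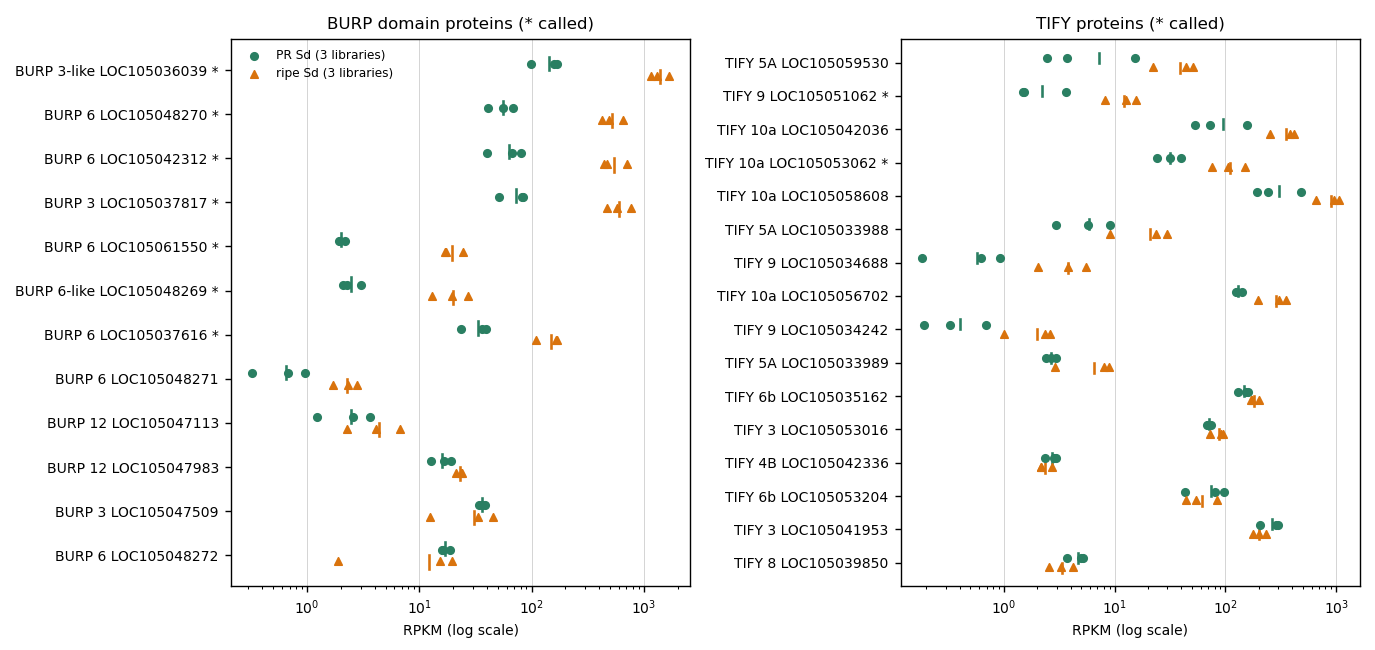
RPKM (log scale) of each Sd library for the 12 BURP domain and 16 TIFY loci tested, PR as green points, ripe as orange triangles and group means as short bars. In the 7 called BURP loci every PR library lies far below the ripe ones. In several TIFY loci PR replicate 9 is the PR library nearest to the ripe ones, as it also is in some called BURP loci, among them LOC105036039 and LOC105042312.

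Single loci of other wall proteins were called, while none of 26 arabinogalactan proteins was called by limma (median 0.06, with 2 higher and 4 lower at an unadjusted p under 0.05). Extensin (LOC105037998), a hydroxyproline-rich glycoprotein that cross-links in the wall, was at 3.34, 3.20 and 3.84 RPKM and then at 33.1, 21.6 and 21.7 (7.36-fold, log2 fold change 2.54, SE 0.27, limma adjusted p = 0.000819). The PR values were tight and every ripe library was far above them. Pollen-specific leucine-rich repeat extensin-like protein 3 (LOC105057541) rose from 1.04 to 7.25 RPKM in the mean, and a pair of glycine-rich cell wall structural protein 2-like loci rose from very low levels, LOC105043020 from 0.368 to 5.96 RPKM and LOC105037402 from 0.118 to 1.94 RPKM. These last 3 were chosen after their values were seen. The 21 kDa protein LOC105041092, of the family of pectin methylesterase inhibitors, was at 9.32, 5.15 and 1.78 RPKM and then at 28.2, 75.5 and 42.4 (log2 fold change 3.03, SE 0.54). Its PR libraries spread widely, and its call was lost without most of the single libraries. Of 26 cellulose synthase loci 2 rose, both cellulose synthase-like protein E6. LOC109504745 was tight at 34.6, 31.7 and 34.3 and then 77.6, 71.1 and 73.6 RPKM (2.21-fold), and LOC105060612 had a log2 fold change of 1.61. UDP-glucuronate 4-epimerase 6 (LOC105033187), which makes the sugar nucleotide for pectin, rose from 4.005, 3.96 and 12.02 to 24.1, 31.2 and 31.0 RPKM and was the single call of 47 loci of pectin and xylan synthesis. Of 40 class III peroxidases, which act on wall phenolics, peroxidase 10 (LOC105055428) rose from 49.4, 51.8 and 42.9 to 109, 132 and 184 RPKM, and the median of the list was 0.42.

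None of 23 polygalacturonases, 35 pectate lyases and pectinesterases, 20 expansins and 10 endoglucanases was called by limma. At an unadjusted p under 0.05 the counts higher and lower were 5 and 2, 9 and 1, 2 and 4, and 5 and 3, against 12.5% of all loci higher and 10.1% lower. Polygalacturonase-like LOC105056882, which hydrolyses pectin, was at 38.2, 26.8 and 19.0 RPKM and then at 82.7, 161 and 183 (log2 fold change 2.28, SE 0.51, limma adjusted p = 0.0217). Its stages did not overlap, as was the case for 7 of the 23 in the upward direction, against 16.9% of all loci. The neighbouring entry LOC105056874 went from 2.39 to 6.51 RPKM at PR to 11.9 to 38.6 RPKM at ripe. Expansin-like B1 (LOC105053923) was not called and was at 234, 305 and 202.5 and then 427, 819 and 996.5 RPKM (log2 fold change 1.53, SE 0.30, limma adjusted p = 0.0137). Expansin-B5 (LOC105043691) ran against it, with 750, 844 and 674 at PR and 678, 447 and 225 RPKM at ripe, and these stages overlapped. Pectin acetylesterase 8 (LOC105037734) went from 10.3 to 14.51 RPKM to 57.2 to 65.9 RPKM (limma adjusted p = 0.0151). These loci were chosen after their values were seen. The summed level of the polygalacturonases was 182 to 263 RPKM at PR and 319 to 532 RPKM at ripe.

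**Figure D3:**
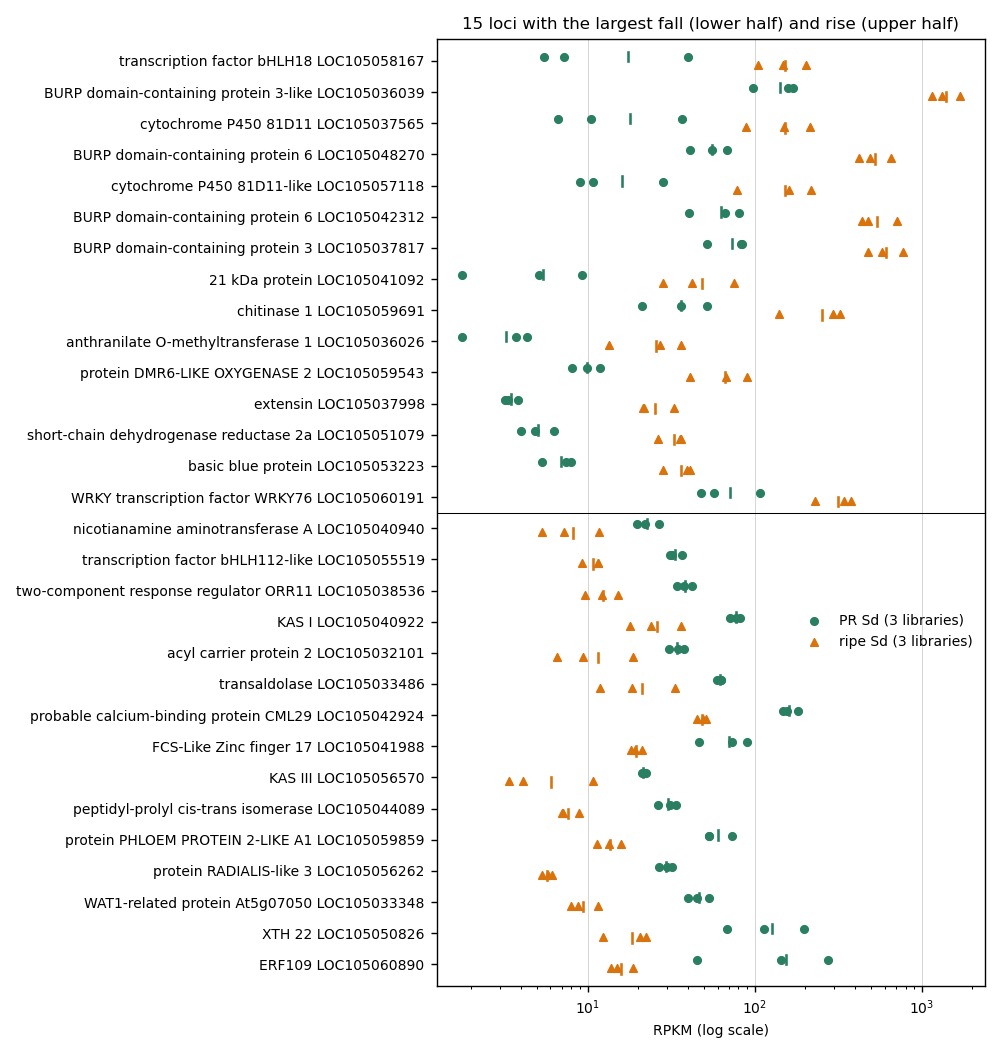
RPKM (log scale) in each of the 6 Sd libraries for the 15 called loci with the largest rise (upper part) and the 15 with the largest fall (lower part) that have a description and a group mean of at least 20 RPKM. PR libraries are green points, ripe libraries orange triangles and bars are group means. KAS stands for 3-oxoacyl-ACP synthase and XTH for xyloglucan endotransglucosylase/hydrolase. No locus shows overlap, and the PR libraries spread widely in bHLH18, the P450 81D11 pair, the 21 kDa protein, XTH 22 and ERF109.

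Of 16 TIFY loci, 2 rose and none fell, against 0.659% of all loci that rose. At 10 of the 16 the ripe libraries lay entirely above the PR ones, against 16.9% of all loci (median log2 fold change of the list 1.07). TIFY 9 (LOC105051062) was at 1.52, 1.498 and 3.62 RPKM and then at 8.24, 12.7 and 15.7 (log2 fold change 2.06, SE 0.33, limma adjusted p = 0.00611). TIFY 10a (LOC105053062) was at 24.1, 31.4 and 39.4 and then at 75.7, 105 and 150.0 RPKM. Much higher in level were 2 other TIFY 10a loci that missed the threshold, LOC105058608 at 193 to 483 RPKM and then 664 to 1063 RPKM, and LOC105042036 at 52.7 to 158 and then 254 to 419 RPKM. In each of these the highest PR library was replicate 9. No TIFY call remained without replicate 7, 8, 11 or 12 or with the Sd libraries alone, and 5 were called without replicate 9. Allene oxide synthase 2 (LOC105039328), of jasmonate synthesis, rose from 38.6, 50.0 and 90.7 to 164, 178 and 214 RPKM and was the single call of 21 loci of that pathway. bHLH18 (LOC105058167) was at 5.52, 7.25 and 39.8 and then at 105, 149 and 204 RPKM, so that PR replicate 9 lay between the other libraries of both stages.

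WRKY factors, regulators of defence genes, gave 4 risers and no faller among 71. WRKY76 (LOC105060191) was at 47.7, 56.8 and 108 and then at 229, 378 and 345 RPKM (log2 fold change 2.21, SE 0.30, limma adjusted p = 0.00279). WRKY71 (LOC105051963) rose from 28.9, 28.8 and 35.0 to 84.1, 150.5 and 171 RPKM, and WRKY 48 (LOC105044992) by 1.06 on the log2 scale. VQ motif-containing protein 22 (LOC105039691), whose family binds WRKY factors, went from 39.7, 46.7 and 92.5 to 185, 225 and 259 RPKM, the single call of 13. Without replicate 7, 8, 11 or 12 no WRKY call remained. Chitin elicitor-binding protein (LOC105061543), a receptor of fungal chitin, rose from 8.15, 7.25 and 11.4 to 28.8, 32.8 and 33.0 RPKM and kept its call without any of the 12 libraries. It was chosen after its values were seen.

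Chitinase 1 (LOC105059691) rose from 52.0, 36.2 and 21.2 to 139, 326 and 292 RPKM (log2 fold change 2.75, SE 0.45, limma adjusted p = 0.00634). It was the single call of 102 chitinases, glucanases and pathogenesis-related proteins, a share close to the 0.659% of all loci that rose. Yet 54 of the 102 had ripe libraries entirely above the PR libraries, against 16.9% of all loci, and the median log2 fold change was 0.48. Summed over the list, the level was 4961 to 6598 RPKM at PR and 9190 to 10927 RPKM at ripe. Endochitinase EP3-like (LOC105051464), not called, was at 71.8 to 99.2 RPKM and then at 378 to 892 RPKM. None of 101 disease resistance proteins and 26 NDR1/HIN1-like proteins was called by limma (11 higher and 6 lower, and 5 higher and 4 lower, at an unadjusted p under 0.05), and the summed level of the NDR1/HIN1-like proteins was 3946, 3220 and 1803 RPKM at PR and 1447 to 1684 RPKM at ripe. Of 87 cytochrome P450 loci 4 rose and 2 fell, with a list median of 0.006. The cytochrome P450 81D11 locus LOC105037565 was at 6.70, 10.5 and 36.5 and then at 89.1, 150.1 and 215 RPKM, and its near copy LOC105057118 at 8.99, 10.8 and 28.3 and then at 78.0, 161 and 218 RPKM. Anthranilate O-methyltransferase 1 (LOC105036026), which in maize forms a volatile ester, rose from 3.72, 1.77 and 4.33 to 13.4, 27.2 and 36.1 RPKM. DMR6-LIKE OXYGENASE 2 (LOC105059543), of a family whose members in Arabidopsis hydroxylate salicylic acid, rose from 11.9, 9.92 and 8.10 to 41.2, 67.2 and 90.1 RPKM, and its call held without any single library. It was the single call of 18 salicylic acid loci, a list that leaned the other way, with 14 below 0 and a median of -0.23.

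Ethylene genes changed at a few loci. The ACC oxidase 1 locus LOC105047965, an enzyme of the last step of ethylene synthesis, rose from 9.37, 6.04 and 6.66 to 21.8, 36.1 and 27.7 RPKM (log2 fold change 1.81, SE 0.25, limma adjusted p = 0.00301) and was the single call of 17 loci of synthesis. It was not the most expressed ACC oxidase. ACC oxidase 3 (LOC105039092), not called, was at 1034, 1021 and 977 RPKM at PR and at 1053, 1066 and 1331 RPKM at ripe. LOC105061033 was at 636, 582 and 463.5 RPKM at PR and at 464, 235 and 89.0 RPKM at ripe, and was not called (log2 fold change -1.38, SE 0.45, limma adjusted p = 0.0931). The summed level of the synthesis loci was 1652 to 1806 RPKM at PR and 1688 to 1749 at ripe. Of 11 loci of perception and signaling 2 rose, both EIN3-binding F-box protein 1, which marks the ethylene regulator EIN3 for breakdown and is itself induced by ethylene in Arabidopsis. LOC105033979 was at 15.8, 21.0 and 45.3 and then at 70.8, 79.8 and 82.0 RPKM, and LOC105033977 had nearly the same values, so that shared reads between these copies cannot be told apart. PR replicate 9 was again between the other PR and the ripe libraries, and neither call remained with the Sd libraries alone or without replicate 7, 8, 10, 11 or 12. Each of these 2 loci was called in 3 of the 12 fits that leave out a library. Of 92 ethylene response factors 4 rose and 1 fell. ERF113-like (LOC105060414) went from 3.53, 2.31 and 1.09 to 9.91, 15.3 and 16.8 RPKM, ERF 2 (LOC105043735) from 51.7, 58.0 and 88.7 to 144, 203 and 194 RPKM, and ERF019 (LOC105036338) from 0.0649, 0.519 and 0.756 to 7.13, 17.1 and 11.5 RPKM, the first PR library with 2 reads. Without replicate 8, 11 or 12 no member of this list was called, and without replicate 9 there were 12.

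Of 191 receptor-like kinases other than the leucine-rich type 5 rose and none fell, against 0.659% of all loci that rose. Among them was cysteine-rich receptor-like protein kinase 6 (LOC105036175), from 7.29, 9.13 and 12.6 to 17.9, 20.7 and 24.1 RPKM. Rust resistance kinase Lr10-like (LOC105039741) rose by 1.52 and cysteine-rich receptor-like protein kinase 15 (LOC105052292) by 1.499 on the log2 scale. Of 71 calmodulins and calmodulin-like proteins 2 rose and 1 fell, against 0.659% and 0.429% of all loci. Calcium-binding protein CP1 (LOC105057333) went from 34.9, 33.4 and 52.4 to 101, 122 and 88.5 RPKM, whereas CML29 (LOC105042924) fell from 156, 147 and 181 to 45.1, 51.4 and 49.3 RPKM. The U-box ubiquitin ligases PUB22-like (LOC105038447) and PUB23-like (LOC105052059), which in Arabidopsis damp immune signaling, rose by 2.12 and 2.54 on the log2 scale from under 3 RPKM. By their descriptions they fell in the list of RING ligases, as its 2 calls of 305 loci, a share close to the 0.659% of all loci that rose. None of 65 loci in the separate U-box list was called by limma (12 higher and 7 lower at an unadjusted p under 0.05). Of 28 loci of auxin transport and conjugation 1 rose and 1 fell, against 0.659% and 0.429% of all loci, with a list median of 0.09. PIN-LIKES 7 (LOC105055275), of an endoplasmic reticulum carrier family, rose from 5.14, 10.1 and 11.7 to 26.4, 37.0 and 35.2 RPKM. The probable indole-3-acetic acid-amido synthetase GH3.11 (LOC105057493) fell from 318, 131 and 144 reads to 20, 27 and 14 reads.

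Phosphoenolpyruvate carboxykinase (LOC105054530), which opens the path from organic acids to sugars, rose from 15.2, 11.4 and 11.5 to 37.2, 43.2 and 51.7 RPKM (log2 fold change 1.71, SE 0.18, limma adjusted p = 0.000766). Short-chain dehydrogenase reductase 2a (LOC105051079) rose from 4.83, 6.27 and 3.99 to 26.3, 36.4 and 35.7 RPKM (6.52-fold), and non-symbiotic hemoglobin 1 (LOC105033708), known to scavenge nitric oxide, from 32.8, 23.8 and 44.6 to 107, 122 and 106 RPKM. A pair of alpha-galactosidases, chosen after their values were seen, rose from 12.7 to 33.1 RPKM (LOC105035858) and from 13.6 to 31.8 RPKM (LOC105035979) in the mean. Of 71 nitrate, peptide and ammonium transporters 2 rose and 1 fell, against 0.659% and 0.429% of all loci. Ammonium transporter 3 member 1 (LOC105051882) was at 6.13, 5.54 and 6.70 and then at 16.3, 21.1 and 19.2 RPKM, ammonium transporter 2 member 1 (LOC105045862) had a log2 fold change of 1.74, and NRT1/PTR FAMILY 6.2 (LOC105040165) fell by 1.48. Sucrose transport protein SUT4 (LOC105058990), a carrier at the vacuole in other species, rose from 11.2, 13.5 and 21.5 to 31.6, 33.1 and 37.3 RPKM. AGL80 (LOC105040111) was the single MADS-box riser of 27, from 70.9, 81.6 and 89.2 to 259, 228 and 241 RPKM (3.02-fold, SE of the log2 value 0.15), and its call held without any single library. The list as a whole leaned the other way, with 18 of 27 below 0. Among the more abundant of them, MADS-box transcription factor 21 (LOC105051585), was at 449 to 470.5 RPKM at PR and 274 to 323 RPKM at ripe, under the fold limit (log2 fold change -0.59, limma adjusted p = 0.00846).

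Among the fallers were single loci of several regulator families. RADIALIS-like 3 (LOC105056262), a small MYB-related protein, was at 30.1, 26.8 and 31.9 RPKM and then at 5.80, 5.31 and 6.17 (log2 fold change -2.18, SE 0.22, limma adjusted p = 0.00062). The libraries of each stage lay within a narrow band. Flowering-promoting factor 1-like protein 1 fell at both tested loci, LOC105057497 from 7.01, 6.39 and 7.52 to 1.95, 1.79 and 2.02 RPKM and LOC105045276 from 16.4, 15.4 and 24.0 to 1.78, 1.76 and 4.46 RPKM. bHLH112-like (LOC105055519) fell from 36.6, 32.1 and 31.3 to 9.31, 11.6 and 11.6 RPKM and the homeobox factor HAT5 (LOC105052519) from 47.7, 51.2 and 53.4 to 23.9, 21.4 and 22.5 RPKM. Of 96 MYB-type loci 4 fell and 1 rose, MYB36 (LOC105055559) with a log2 fold change of -1.65 and MYB106 (LOC105058564) with -1.26 among the fallers. At low levels, and chosen after their values were seen, were protein HEADING DATE 3A (LOC105048191), a florigen-type protein, at 2.09, 2.77 and 1.84 and then at 0, 0 and 0.052 RPKM, transcription factor AS1 (LOC105045660) from 1.43 to 0.151 RPKM and TORNADO 2 (LOC105053858) from 2.54 to 0.706 RPKM, known from meristem and leaf development. AS1 kept its call in 5 and TORNADO 2 in 1 of the 12 fits that leave out a library.

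Of 39 cytokinin loci 2 fell and none rose, both response regulators of the type that cytokinin induces. ORR11 (LOC105038536) was at 37.7, 42.4 and 34.1 and then at 9.65, 15.2 and 12.2 RPKM (log2 fold change -1.56, SE 0.25, limma adjusted p = 0.00553), and ORR5 (LOC105058925) at 2.11 to 4.09 and then at 0.192 to 0.668 RPKM. In all 15 of the 39 had ripe libraries entirely below the PR ones, against 15.1% of all loci. Cytochrome P450 90B1 (LOC105058282), an early step of brassinosteroid synthesis, fell from 17.4, 14.9 and 15.1 to 3.48, 4.997 and 2.88 RPKM. The list of brassinosteroid metabolism and response does not hold this locus. None of its 12 loci was called by limma (3 higher and 0 lower at an unadjusted p under 0.05), and its median was 0.12. ABC transporter G family member 14 (LOC105036129), a cytokinin exporter in Arabidopsis, fell from 4.98 to 0.922 RPKM and held its call without any single library. Of 26 WAT1-related transporters 2 fell, At5g07050 (LOC105033348) from 40.2, 45.4 and 53.2 to 7.92, 11.6 and 8.78 RPKM and At5g47470 (LOC105054977) from 79.7, 69.9 and 59.5 to 23.8, 22.5 and 29.8 RPKM. PHLOEM PROTEIN 2-LIKE A1 (LOC105059859) fell from 53.0, 53.6 and 73.3 to 11.4, 15.9 and 13.4 RPKM. Glutaredoxin-C1 (LOC109505860) was at 13.3, 12.4 and 16.5 and then at 0.609, 2.37 and 2.19 RPKM, and the 18.9 kDa heat shock protein (LOC105055017) at 6.02, 5.10 and 7.13 and then at 0.642, 1.35 and 0.445 RPKM. Both kept their calls without any single library, and 19 of 23 small heat shock proteins were below 0.

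Plastid genes were among the fallers. Of 51 loci of plastid fatty acid synthesis 3 fell and none rose, 39 were below 0 and the median was -0.30. 3-Oxoacyl-ACP synthase III (LOC105056570), which starts the chain, was at 21.1, 22.3 and 21.4 RPKM and then at 10.7, 4.08 and 3.41, and synthase I (LOC105040922), which lengthens it, at 77.8, 81.7 and 71.5 and then at 36.1, 23.9 and 18.1 RPKM. Acyl carrier protein 2 (LOC105032101) was at 37.9, 34.9 and 30.6 and then at 18.6, 9.42 and 6.53 RPKM. In all of these ripe replicate 10 was the highest ripe library, as it was for the summed level of the list, 4092 to 4189 RPKM at PR and 3712, 2751 and 2392 RPKM at ripe. Without replicate 10 there were 8 calls in the list, and none without replicate 7, 8 or 11 or with the Sd libraries alone. The oil-rich mesocarp markers given above, 28 of 44 of which were tested and 5 at 0 throughout, share members with this list and were lower in the ripe libraries, and their part in the result was not tested. Of 55 photosynthesis loci 2 fell, the light-harvesting-like protein OHP1 (LOC105044359) from 6.29, 8.68 and 7.95 to 1.59, 2.62 and 0.993 RPKM and oxygen-evolving enhancer protein 2 (LOC105032043) from 9.30, 9.85 and 6.34 to 1.74, 1.84 and 2.91 RPKM. Against them stood the RuBisCO small chain LOC105039639, at 29.8 to 31.8 and then 56.6 to 67.1 RPKM, just under the fold limit (log2 fold change 0.98, limma adjusted p = 0.00127). Neither photosynthesis call remained without replicates 9 and 10 together.

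Carotenoid genes were called in both directions. Lycopene epsilon cyclase (LOC105057721), the entry to lutein, fell from 7.13, 6.15 and 6.91 to 3.24, 3.09 and 1.88 RPKM. Phytoene synthase 2 (LOC105060468), an isoform of the first committed step, rose from 0.0794, 0.0318 and 0.172 to 2.41, 2.33 and 3.43 RPKM, a locus chosen after its values were seen whose call was lost in most fits that leave out a library. Another locus of that name with a higher level, LOC105058894, was at 44.3 to 55.2 RPKM at PR and 37.9 to 43.9 RPKM at ripe. Of 25 loci of the pathway these were the calls, and 17 were below 0.

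**Figure D4:**
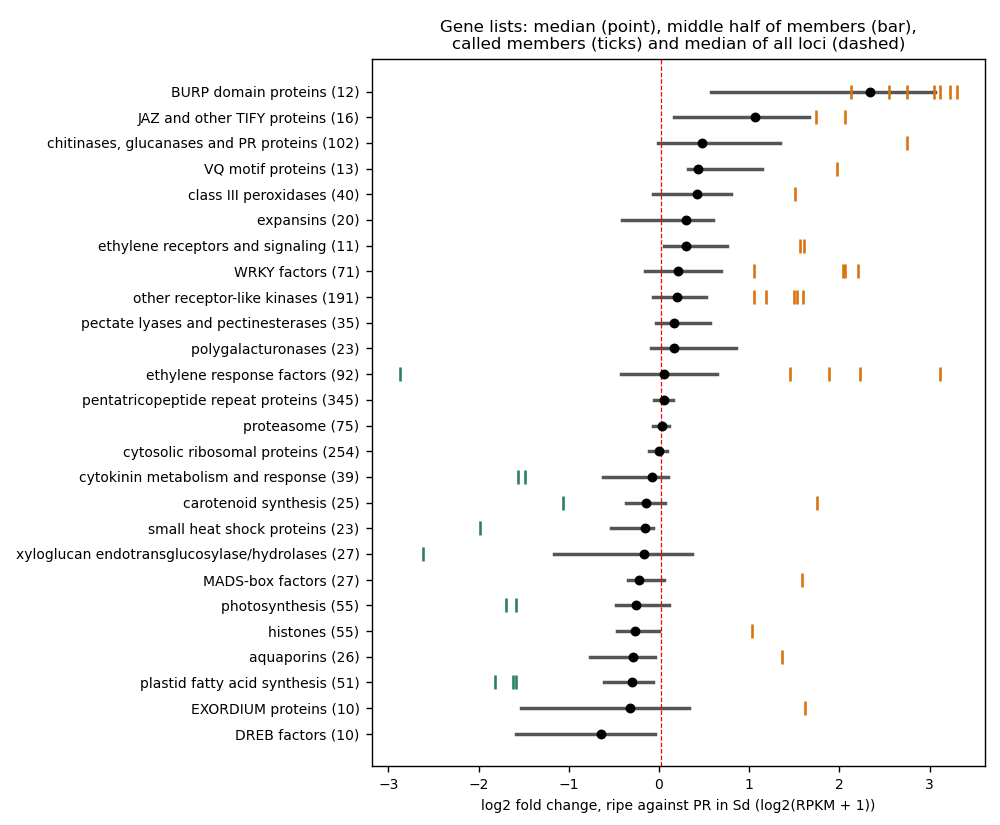
Log2 fold change from PR to ripe in Sd for 26 gene lists, with the number of tested members in brackets. The point is the median of the list, the bar the range from the lower to the upper quartile, and ticks mark called members that rose (orange) or fell (green). The BURP list stands at 2.34 and the DREB list at -0.64, while the ribosomal, proteasome and pentatricopeptide lists lie at the median of all loci (dashed line, 0.03).

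A separate pattern was a decline in which the PR libraries themselves differed widely. Xyloglucan endotransglucosylase/hydrolases (XTH) remodel the hemicellulose of the wall, and XTH 22 (LOC105050826) fell from 197, 113 and 67.9 to 20.7, 22.4 and 12.3 RPKM (log2 fold change -2.62, SE 0.47, limma adjusted p = 0.00861). It was the single call of 27. LOC105049227 was at 1598, 710 and 309 and then at 146, 115 and 59.0 RPKM (log2 fold change -2.81, limma adjusted p = 0.0108), and the summed level of the family was 3324, 1754 and 952 RPKM at PR and 240 to 500.5 RPKM at ripe. In the PR stage replicate 7 was the highest and replicate 9 the lowest. The same order of PR libraries was seen in ERF109 (LOC105060890), the faller with the largest change of those named by rule, at 275, 145 and 45.0 and then 13.8, 18.8 and 14.97 RPKM. It was seen in protein EXORDIUM (LOC105056795), a growth-related apoplastic protein, at 790, 494 and 326 and then 174, 148 and 81.4 RPKM. It was also seen in 2 loci of DREB 1C, a regulator of cold and drought genes, of which LOC105059334 was at 415, 198 and 102 and then 44.4, 48.4 and 42.6 RPKM. None of the 10 DREB loci was called by limma, 5 were lower at an unadjusted p under 0.05 and 0 higher, and the median of that list was -0.64. Within the same EXORDIUM family, EXORDIUM-like 2 (LOC105056792) rose from 60.2, 71.4 and 82.2 to 149, 239 and 295 RPKM.

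The position of replicate 9 can be put on a scale on which the mean of PR replicates 7 and 8 is 0 and the mean of ripe replicates 11 and 12 is 1, in log2(RPKM + 1). Over the 135 risers its median was 0.16, and 51 lay past 0.25. Over the 88 fallers it was 0.07, and 19 lay past 0.25. Ripe replicate 10 had a median of 0.78 over the risers and 1.01 over the fallers. All 6 libraries entered the calls, so this is a description of the called loci with no test.

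Large parts of the transcriptome gave no call. None of 254 cytosolic ribosomal proteins, 75 proteasome subunits, 130 splicing factors and 345 pentatricopeptide repeat proteins was called by limma, with list medians between -0.004 and 0.052, and at an unadjusted p under 0.05 the counts higher and lower were 5 and 19, 3 and 1, 4 and 5, and 13 and 9. None of the 10 most abundant transcripts was called. Early nodulin-75 (LOC105059233) was at 10682, 9001 and 9524 RPKM and then at 15947, 15951 and 13931 (log2 fold change 0.65, SE 0.27, limma adjusted p = 0.171). A metallothionein-like protein type 2 locus (LOC105044409) was at 11846, 13171 and 12555 RPKM and then at 13261, 11285 and 11267, and the other (LOC105056944) at 6333, 6755 and 6152 and then at 4414, 3894 and 3788 (log2 fold change -0.67, limma adjusted p = 0.0158). The translationally-controlled tumor protein homolog (LOC105045204) and GRP2A (LOC105058161) had log2 fold changes of -0.14 and 0.27. Histones, with 1 riser in 55, had a median of -0.26, and 41 of 55 were below 0. Of 26 aquaporins 20 were below 0 and 10 had ripe libraries entirely below the PR ones, against 15.1% of all loci. The boron channel NIP5-1 (LOC105043497) rose instead, from 3.01, 3.34 and 3.16 to 9.30, 10.5 and 9.53 RPKM.

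Set beside the NSd palm, whose stage contrast shares no library with that of the Sd palm, the risers divided. Of the 135, 33 were called higher with ripening in NSd, 33 lower and 69 in neither direction, against 7.77% higher and 3.07% lower of all loci. Both contrasts used the same estimate of the spread of each locus, so the NSd calls at these loci are not independent of their Sd calls. The NSd contrast as a whole was shifted, with a median log2 fold change of 0.31, and the PR NSd libraries held 12.1 to 22.4% of reads on rRNA. The called BURP loci rose in both palms (median of the list 2.47 in NSd and 2.34 in Sd), and so did extensin (3.91 in NSd), DMR6-LIKE OXYGENASE 2 (2.19), phosphoenolpyruvate carboxykinase (2.33), ACC oxidase 1 (2.32), peroxidase 10 (1.48) and AGL80 (4.11). In contrast the TIFY list had a median of -0.57 in NSd, and bHLH18 (-2.48), WRKY76 (-2.35), WRKY71 (-2.96), ERF019 (-3.67), VQ 22 (-1.69), PUB23-like (-2.85) and chitin elicitor-binding protein (-1.85) fell there while they rose in Sd. Of the 33 risers shared with NSd, 3 had replicate 9 past 0.25 on the scale above (median 0.015), and of the 33 that fell in NSd, 19 had (median 0.30). Of the 88 fallers 17 also fell in NSd, among them RADIALIS-like 3 (-1.49), PHLOEM PROTEIN 2-LIKE A1 (-2.19), glutaredoxin-C1 (-3.29) and CML29 (-2.24), and 23 rose there, among them acyl carrier protein 2 (2.29), synthase III (1.35) and bHLH112-like (1.82). Across all loci Pearson's r between the stage changes of the palms was -0.16, a description over loci that are not independent.

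**Figure D5:**
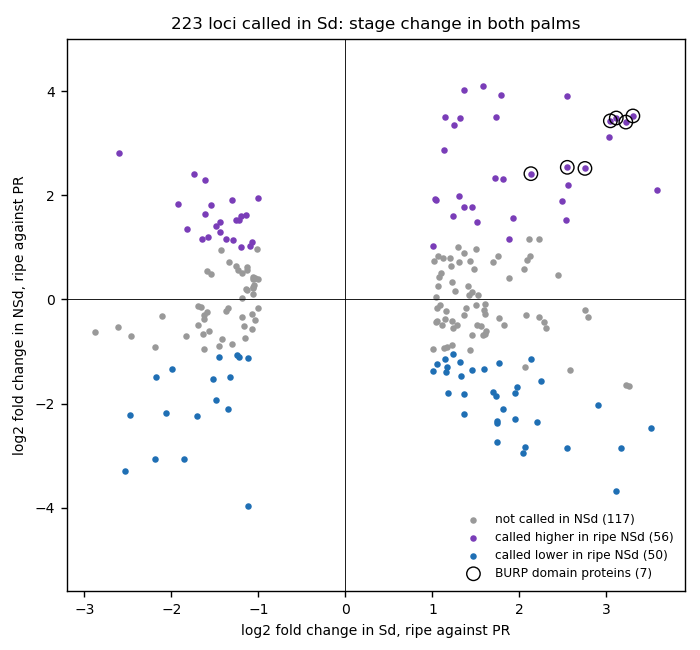
Log2 fold change from PR to ripe in Sd (horizontal) and NSd (vertical) for the 223 loci called in Sd, coloured by their call in NSd (56 higher, 50 lower and 117 in neither). The 7 BURP loci (circled) lie at the upper right, and 63 of the 135 risers of Sd lie above 0 in NSd.

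The difference between the palms was tested with the interaction term of the same fit, which passed its threshold at 13.3% of all loci. It passed at 134 of the 223 loci called in Sd. This term contains the Sd change on which the loci were called, so the count is not independent of the calls. Among the risers the log2 fold change was higher in Sd than in NSd at 74 and lower at 8. Among the fallers the Sd value was the lower one at 51 and the higher one at 1. These include opposite changes, since 44 of the 88 fallers were above 0 in NSd. None of the 7 called BURP loci passed the interaction threshold, and the difference, Sd minus NSd, lay between -0.39 and 0.24 on the log2 scale (limma adjusted p = 0.360 to 0.983).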

How the data were processed

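RNA of 12 AZ samples was sequenced as single reads on an Illumina NovaSeq. Per the labels and the study's methods, the authors trimmed reads with bcl2fastq 2.20.0.422, aligned them with BWA-MEM to the E. guineensis transcriptome and deposited RPKM for 29040 loci in each of 12 files. No count table was used here. A row without a locus name was left out of each file. Library totals, recovered from the steps between RPKM values, were whole numbers adding up to 277584786, and 66.9% of detected loci gave whole reads within a tolerance of 0.001 reads. Molecular identifiers are not named in the sources used here, and depth covers counting error only. Alignment to a related species can lose or move reads between near-identical loci.

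Values were fitted as log2(RPKM + 1) in limma 3.58.1 (R 4.3.3), letting the prior variance follow the mean, over 12 libraries in 4 groups, for loci that reached 1 RPKM in any library. This scale understates changes of low loci. With 3 libraries against 3, an exact permutation test of a single value cannot go below 0.10. On simulated data for ripe against PR in Sd (19765 loci), 88% of loci changed by 1.5 and 98% of those changed by 3 on the log2 scale were recovered. The changed loci were drawn from those above 5 RPKM at PR, and the noise was normal and independent between libraries. These shares therefore do not cover lower loci or shifts that many loci of a library have in common. Lists were 110 patterns on locus descriptions (6132 tested loci). Named loci were the 15 highest and 15 lowest called with no overlap, at least 20 RPKM and a description, up to 3 called members per list with at least 5 RPKM, and the 10 most abundant other than rRNA. Other loci named in the text were chosen after their values were seen, among them all those not called outside the 10 most abundant. Members and lists were chosen with earlier results of these data known. Alternatives were no filter, a pseudocount of 0.1, the 6 Sd libraries alone, rescaled RPKM, rRNA loci out of the totals, no trend, robust moderation, array weights, an adjusted p under 0.05, and leaving out each library. Fits without replicates 9 and 10 together were added after seeing the data. Promoter sequences were not analysed here. Tables used Python 3.11.15 and pandas 2.3.3.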

Additional observations from a re-analysis of the deposited data

Results flagged for a closer look

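The stage change in Sd differed from that in NSd at 59 of the 106 named loci (interaction term of the limma fit, called by the same thresholds). The values below are the difference between the log2 fold changes, Sd minus NSd. For the loci called in Sd, the term contains the change on which they were called, so it is not independent of that choice.

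At 35 of these loci the log2 fold change was above 0 in Sd and below 0 in NSd. The difference was 5.98 for transcription factor bHLH18 (LOC105058167), 4.92 for cytochrome P450 81D11 (LOC105037565), 4.87 for cytochrome P450 81D11-like (LOC105057118), 2.96 for chitinase 1 (LOC105059691), 3.93 for anthranilate O-methyltransferase 1 (LOC105036026), 2.58 for basic blue protein (LOC105053223) and 4.55 for WRKY transcription factor WRKY76 (LOC105060191). In the same direction it was 1.89 for cellulose synthase-like protein E6 (LOC105060612), 2.26 for EIN3-binding F-box protein 1 (LOC105033979), 2.08 for EIN3-binding F-box protein 1 (LOC105033977), 2.13 for ethylene-responsive transcription factor 2 (LOC105043735), 6.79 for ethylene-responsive transcription factor ERF019 (LOC105036338), 4.90 for protein TIFY 9 (LOC105051062) and 4.11 for protein TIFY 10a (LOC105053062). Hormone and signaling genes and others gave 3.92 for protein PIN-LIKES 7 (LOC105055275), 4.996 for WRKY transcription factor WRKY71 (LOC105051963), 1.47 for probable WRKY transcription factor 48 (LOC105044992), 3.56 for calcium-binding protein CP1 (LOC105057333), 2.99 for calmodulin-like (LOC105048683), 2.30 for cysteine-rich receptor-like protein kinase 6 (LOC105036175) and 3.66 for VQ motif-containing protein 22 (LOC105039691). Further values were 2.07 for phosphatidylinositol:ceramide inositolphosphotransferase (LOC105052153), 5.40 for E3 ubiquitin-protein ligase PUB23-like (LOC105052059), 2.41 for F-box/kelch-repeat protein At1g74510 (LOC105041714), 2.29 for sucrose transport protein SUT4 (LOC105058990), 4.48 for ammonium transporter 2 member 1 (LOC105045862), 1.21 for sulfate transporter 3.1 (LOC105042328) and 2.46 for pyruvate kinase isozyme G (LOC105043843). Other loci of this kind gave 1.39 for isoflavone 2'-hydroxylase (LOC105033511), 2.12 for crocetin glucosyltransferase (LOC105040277), 2.51 for protein O-glucosyltransferase 1 (LOC109506482), 2.29 for cysteine-rich and transmembrane domain-containing protein WIH2 (LOC105049213), 3.46 for cysteine-rich and transmembrane domain-containing protein WIH2 (LOC105060667), 2.23 for protein EXORDIUM-like 2 (LOC105056792) and 1.95 for aspartic proteinase Asp1 (LOC105051814).

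At 19 loci the log2 fold change was below 0 in Sd and above 0 in NSd. The difference here was -3.17 for 3-oxoacyl-[acyl-carrier-protein] synthase III (LOC105056570), -4.14 for FCS-Like Zinc finger 17 (LOC105041988), -3.26 for transaldolase (LOC105033486), -3.90 for acyl carrier protein 2 (LOC105032101), -2.79 for 3-oxoacyl-[acyl-carrier-protein] synthase I (LOC105040922), -3.36 for transcription factor bHLH112-like (LOC105055519) and -2.74 for nicotianamine aminotransferase A (LOC105040940). Among other fallers it was -2.82 for transcription factor MYB36 (LOC105055559), -2.78 for transcription factor MYB106 (LOC105058564), -1.69 for homeobox-leucine zipper protein HAT5 (LOC105052519), -2.90 for protein NRT1/PTR FAMILY 6.2 (LOC105040165), -2.37 for WAT1-related protein At5g47470 (LOC105054977), -2.21 for probable peroxygenase 5 (LOC105053190) and -2.18 for lycopene epsilon cyclase (LOC105057721). The last of these gave -2.14 for oxygen-evolving enhancer protein 2 (LOC105032043), -2.04 for cyclin-U2-2 (LOC105043645), -2.43 for tubulin beta-5 chain (LOC105045457), -5.41 for membrane protein PM19L (LOC105043190) and -2.29 for metallothionein-like protein type 2 (LOC105056944).

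At 5 loci both log2 fold changes were above 0 and differed in size. They differed by -2.52 for agamous-like MADS-box protein AGL80 (LOC105040111), 1.45 for rust resistance kinase Lr10-like (LOC105039741), -1.76 for non-symbiotic hemoglobin 1 (LOC105033708), -2.78 for early nodulin-75 (LOC105059233) and -2.09 for mannose/glucose-specific lectin (LOC105053474).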

How the results depend on the processing

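No paired analysis was possible because the groups share no replicate number. The numbers of calls moved with the weighting of libraries, the filter and the libraries fitted. With limma array weights 1083 loci were called (816 higher, 267 lower, 780 with a difference between the palms), without a filter on low values 101 (52, 49 and 53), with the 6 Sd libraries alone 118 (68 and 50), and at an adjusted p under 0.05 with no fold limit 1444 (777, 667 and 1069). Without replicates 9 and 10 together, a fit chosen after seeing the data, 338 loci were called, 234 of them higher, and 282 differed between the palms. Leaving out 1 library gave 42 to 410 calls in all, 21 to 261 higher, 19 to 149 lower and 15 to 318 that differed between the palms. Of the 223 calls, 208 remained with array weights, 101 without a filter, 82 with the Sd libraries alone and 151 without replicates 9 and 10. A pseudocount of 0.1, rescaled RPKM, rRNA out of the totals, no trend and robust moderation kept each count within 1.5 times. No log2 fold change of a called named locus changed sign in any alternative. Of 96 called named loci, 27 kept their call in every alternative fit other than those that left out single libraries or replicates 9 and 10 together. The cause of these differences was not tested. Depth limits loci with few reads, and the 3 libraries of a group from 1 bunch limit the rest.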
